A study of Homo sapiens with 24 samples.

Results

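The 10 genes CNOT1, CNOT2, CNOT3, CNOT4, CNOT6, CNOT7, CNOT8, CNOT9, CNOT10 and CNOT11 encode the subunits and a partner of CCR4-NOT, the main complex that removes poly(A) tails from mRNA. They were chosen by name, and every window whose gene field names one of them was taken from the 6 deposited lists of protein-bound windows. These are 10 of the 9792 genes that the lists name, and 792 of the 329565 listed windows. A window is a stretch of up to 100 bases of a transcript in which reads of the immunoprecipitate (IP) were enriched over an input library. No window of these genes was assigned to a further gene.

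CCR4-NOT is built on the large scaffold CNOT1. The deadenylases CNOT7 or CNOT8, with CNOT6 or its paralog, shorten the poly(A) tail, which silences an mRNA and opens it to decapping and decay. RNA-binding proteins and the microRNA machinery bring the complex to their targets through CNOT1, CNOT9 and the module of CNOT2 and CNOT3. Here the transcripts of these genes, not the proteins, were measured.

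The study mapped RNA contacts by eCLIP, in which proteins are crosslinked to RNA and immunoprecipitated, in HEK293, a human embryonic kidney cell line. There were 6 experiments with 2 input and 2 IP libraries each, which makes 24 libraries in 12 groups. SNRNP200, a spliceosomal helicase that separates the U4 from the U6 snRNA before splicing, was mapped in whole cells and in a cytoplasmic fraction, each untreated or with 500 µM arsenic, an oxidative stressor that blocks translation and induces stress granules. CAPRIN and G3BP1, proteins of stress granules, were mapped in cells whose labels give no treatment. The labels are not uniform on this point: their treatment protocol names arsenic for all 24 libraries, but the characteristics list it only for the stress libraries, and the groups follow the characteristics. Nothing in the labels shows that a replicate pair came from 2 cultures, and p-values measure the spread between these libraries, which may be technical.

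Nearly all windows of the 10 genes came from whole cell SNRNP200. The untreated whole cell list held 439 windows in all 10 genes, and the arsenic whole cell list held 331 in 9 genes, without CNOT7. The background was high, since 92.4% and 83.8% of the 9792 genes had a window in these lists. The cytoplasmic SNRNP200 lists covered 4 of the genes untreated, with 6 windows, and 3 under arsenic, with 4 windows, where 18.6% and 25.2% of all genes had a window. CAPRIN had 11 windows in 5 of the genes, beside 44.6% of all genes, and G3BP1 had 1 window in CNOT1, beside 12.6% of all genes. The windows held 17034 IP and 2321 input reads in untreated whole cells and 14475 IP and 1868 input reads with arsenic. A single window was thin, with a median of 30 IP and 4 input reads untreated and 36 and 4 with arsenic.

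The letters of a few such windows are shown to make the classes concrete, since an SNRNP200 window can lie in an exon or in the intron beside it. They are the windows of these genes at splice sites, and their neighbours, for which the RefSeq promoter table (GRCh38.p14) holds the bases. All are written 5′ to 3′ on the strand of the CNOT gene, which is the plus strand. In CNOT3 a run on chromosome 19 covers the end of an intron (chr19:54152178-54152225, the last 48 bases of a window), the coding window after it (chr19:54152226-54152325), and a short intron window that touches both of its splice sites (chr19:54152328-54152425, printed with 2 more bases on either side). Capitals mark the last 2 bases of the first intron and the 2 bases on either side of the short intron window.
CNOT3 intron end: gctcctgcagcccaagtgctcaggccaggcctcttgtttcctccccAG
CNOT3 coding window: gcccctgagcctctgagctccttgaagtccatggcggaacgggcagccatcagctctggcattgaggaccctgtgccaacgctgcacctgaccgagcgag
CNOT3 short intron: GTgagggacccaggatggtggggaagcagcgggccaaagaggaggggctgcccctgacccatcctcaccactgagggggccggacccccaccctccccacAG
In untreated whole cells these windows had 66 IP and 3 input reads at the intron end, 99 and 6 in the coding window, and 34 and 0 in the short intron. Their log2 enrichment, the ratio of IP to input set against that of windows of like GC content, was 3.11 and 4.36, 2.54 and 3.44, and 4.47 and 5.05 in the 2 replicates. None of these 3 windows was in the arsenic list. In CNOT2 a window at the start of an intron (chr12:70243481-70243580, its first 6 bases in capitals) was in both whole cell lists, and a window further into the same stretch (chr12:70243681-70243740, the first 60 bases of the window) was in the arsenic list alone.
CNOT2 intron start: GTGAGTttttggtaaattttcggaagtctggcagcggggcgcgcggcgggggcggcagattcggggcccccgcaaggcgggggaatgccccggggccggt
CNOT2 further in: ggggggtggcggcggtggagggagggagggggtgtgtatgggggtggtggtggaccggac
The CNOT2 intron start had 62 IP and 7 input reads untreated, with log2 values of 1.83 and 3.21. The stretch further in is 66.7% G, and its whole window had 85 IP and 2 input reads with arsenic, with log2 values of 3.78 and 4.37.

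In untreated whole cells, 167 of the 439 windows (38.0%, exact 95% binomial interval 33.5% to 42.8%) lay in introns directly at a splice site, and 169 (38.5%, 33.9% to 43.2%) in coding sequence. Over all windows of that list the shares were 35.7% and 38.7%. With arsenic the splice site share was 45.3% (150 of 331, 39.9% to 50.9%) in these genes and 41.0% in all windows. It was higher than untreated mainly through CNOT1 (42.2% untreated, 51.6% with arsenic) and CNOT3 (27.5% and 37.0%). Without these genes it was 39.6% untreated and 40.8% with arsenic. The intervals cover counting error only, and windows of one gene share transcripts. Of the splice site windows in untreated cells, 89 were at 5′ splice sites, 66 at 3′ splice sites and 12 in short introns that touch both. Windows labelled as untranslated regions were rare, with 3 in 3′UTRs and 6 in 5′UTRs. In the arsenic list the 3′UTR windows of CNOT2 and CNOT11 had coding windows further 3′ in the gene. Coding exons of the 10 genes with a window numbered 114 in untreated cells, and 65 of them had a listed 3′ splice site window before them, 80 a 5′ splice site window after them, and 48 both.

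**Figure D1:**
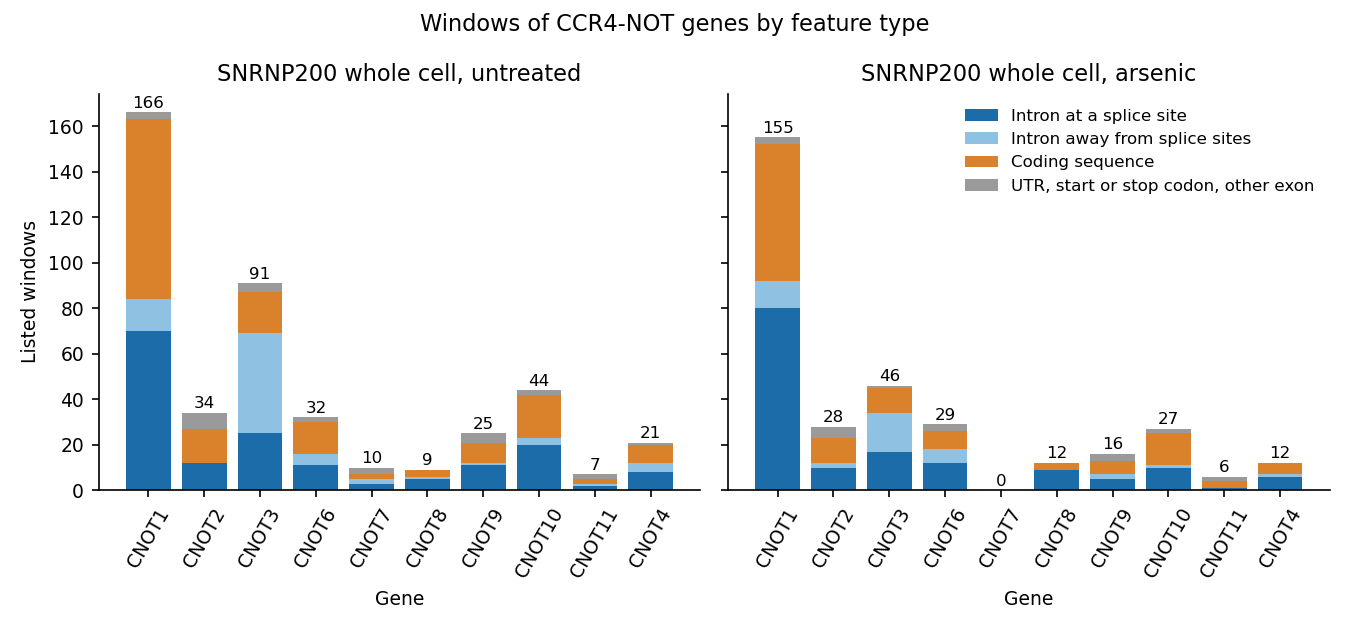
Stacked bars give the number of listed windows (vertical axis) of each gene in the whole cell SNRNP200 lists, untreated on the left and with arsenic on the right, coloured by feature type. CNOT1 led with 166 and 155 windows, CNOT3 had 44 windows in introns away from splice sites in untreated cells, and CNOT7 had 10 windows and then 0.

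CNOT1 (chr16:58519951-58629826, minus strand), the scaffold on which all other subunits assemble, carried the most windows. It had 166 in untreated and 155 in arsenic-treated whole cells, which placed it 26th of 9052 and 10th of 8202 listed genes. Per kilobase of the 110 kb gene this was 1.51 windows, where the median listed gene had 0.426. Of the 166 windows 79 lay in coding sequence, 70 at splice sites and 14 in introns away from them. They covered 44 coding exons, of which 33 had a 3′ splice site window before them, 35 a 5′ splice site window after them, 29 both and 5 neither. The windows lay in blocks along the gene, with 4 in the first 40 kb, 46 between 40.9 and 55.2 kb from the RefSeq start, and 116 between 69.4 and 108.5 kb. Its strongest window in untreated cells was at a 3′ splice site (chr16:58546499-58546571), with 33 IP and 0 input reads and log2 values of 5.36 and 6.39. With arsenic it was at a 5′ splice site (chr16:58551032-58551131), with 43 IP and 0 input reads and log2 values of 4.99 and 6.87.

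CNOT3 (chr19:54137762-54155681), the partner of CNOT2 in the module that binds regulators, was the most densely covered of the 10. In 17.9 kb it had 91 windows in untreated cells, 5.08 per kilobase, which ranked 357th of 8739 genes with a length. Between its first and last window 53.8% of the 169 consecutive tiles were listed, against 14.4% in CNOT1 and 3.23% in CNOT2. Its windows differed in place, as 44 of 91 (48.4%) were in introns away from splice sites, where the 9 other genes together had 31 of 348 (8.91%). CNOT3 thus held 34 of the 62 windows near but not at splice sites and 10 of the 13 in deep introns. Over all windows of the untreated list, 10.9% were near but not at splice sites and 2.42% in deep introns. The CNOT3 windows were GC-rich, with a median GC content of 58.0% against 40.2% in CNOT1. They also had fewer input reads for their IP reads, a median of 3 and 50 against 6 and 35 in CNOT1, and the part of base composition and input depth in the density was not tested. The strongest window, at a 3′ splice site (chr19:54149460-54149559), had 153 IP reads over 1 input read and log2 values of 4.36 and 7.38. CNOT1 and CNOT3 together made up 58.5% of the windows of the 10 genes and 71.7% of their IP reads in untreated cells.

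CNOT2 (chr12:70243018-70354993), which pairs with CNOT3, had 34 windows in 112 kb, of which 15 were in coding sequence and 12 at splice sites, and no window in an intron away from splice sites. Its strongest window was coding (chr12:70337451-70337513), with 32 IP and 0 input reads and log2 values of 5.26 and 6.21.

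**Figure D2:**
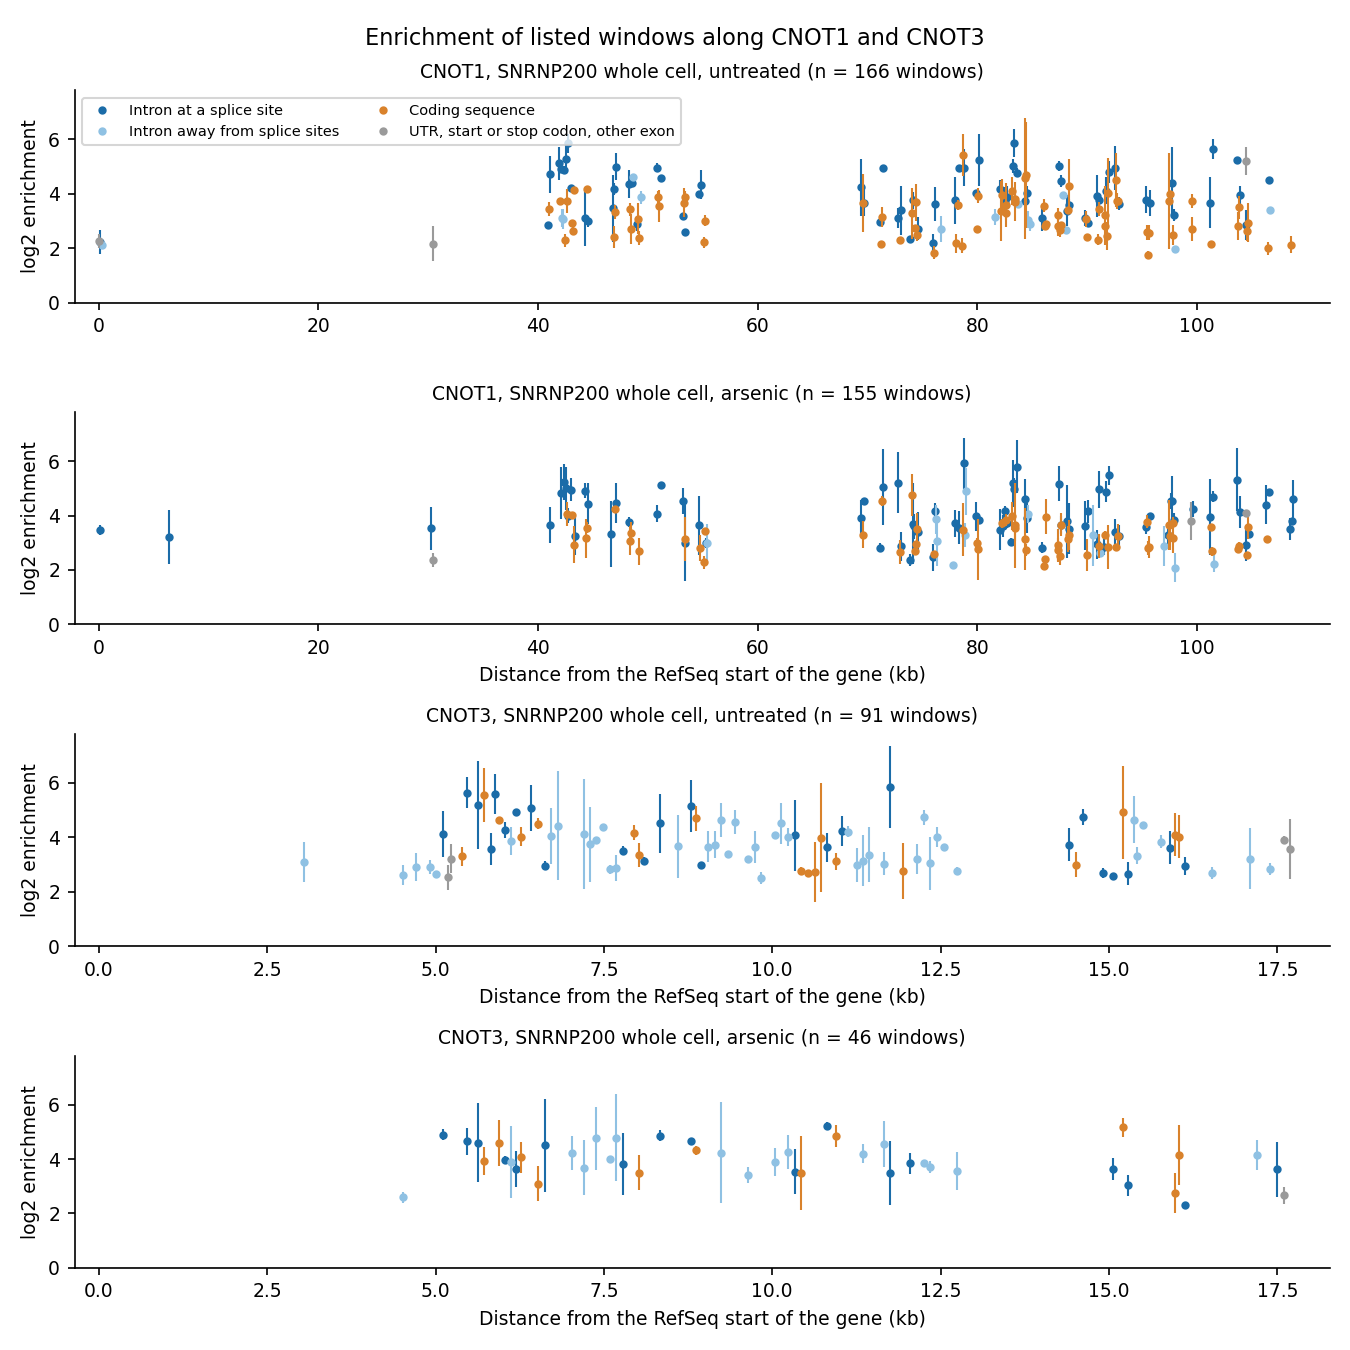
Each point is the mean log2 enrichment (vertical axis) of a listed window of CNOT1 or CNOT3 at its distance from the RefSeq start of the gene in kb (horizontal axis), with a line from the lower to the higher replicate and colours for the feature type. CNOT1 windows form a block at about 40 to 55 kb and another beyond 69 kb in both lists, and CNOT3 has 91 windows untreated and 46 with arsenic.

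Of the catalytic subunits, CNOT6 (chr5:180494379-180578358), a deadenylase of the exonuclease-endonuclease-phosphatase fold, had 32 windows, 14 of them coding and 11 at splice sites. Its strongest was a 3′ splice site window (chr5:180567749-180567848) with 50 IP and 1 input reads and log2 values of 5.38 and 5.80. CNOT8 (chr5:154858249-154876792), a deadenylase of the DEDD family, had 9 windows, 5 at splice sites and 3 coding, and its strongest lay at a 5′ splice site (chr5:154871875-154871974) with 16 IP and 0 input reads and log2 values of 4.96 and 5.13. CNOT7 (chr8:17224966-17246857, minus strand), the paralog of CNOT8, had 10 windows of 9 to 33 IP reads. They lay between positions 17234310 and 17246674, with none in the rest of the gene toward its 3′ end. Of the 10, 3 were at splice sites, 2 in coding sequence, and 1 each labelled as start and stop codon. An intron window of CNOT7 (chr8:17234310-17234403) lay 3′ of the one labelled as stop codon. Its strongest, a coding window (chr8:17234747-17234803), had 19 IP and 1 input reads and log2 values of 4.08 and 5.06. The treatment of reads that match several places is not stated, and reads of exons alike in paralogs could be split between them.

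CNOT9 (chr2:218568839-218597080), which binds GW182 proteins of the microRNA pathway, had 25 windows, 11 at splice sites and 9 coding. It held the strongest window of the 10 genes in untreated cells, at a 5′ splice site (chr2:218592403-218592502) with 56 IP and 1 input reads and log2 values of 5.63 and 6.24. CNOT10 (chr3:32685188-32773875) and CNOT11 (chr2:101252886-101270316) form a module at one end of CNOT1. CNOT10 had 44 windows, 20 at splice sites and 19 coding, with its strongest at a 5′ splice site (chr3:32727871-32727970), where 15 IP and 0 input reads gave log2 values of 4.40 and 5.20. CNOT11 had 7 windows, with its strongest labelled as stop codon (chr2:101269046-101269145), where 46 IP and 5 input reads gave log2 values of 4.32 and 4.48. In the arsenic list a coding window of CNOT11 lay further 3′ (chr2:101269216-101269313). The label thus does not mark the end of all coding sequence of CNOT11. CNOT4 (chr7:135361795-135510102, minus strand), a ubiquitin ligase that joins the complex loosely in human cells, was the most sparsely covered, with 21 windows in 148 kb or 0.142 per kilobase. Its strongest lay at a 5′ splice site (chr7:135438058-135438157), with 16 IP and 1 input reads and log2 values of 2.97 and 5.53.

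Of the strongest windows in untreated cells 7 of 10 lay at splice sites, beside 51.5% over the 9052 genes of the list, and their means lay between 4.25 and 5.94. With arsenic 6 of 9 lay at splice sites, beside 50.9% over 8202 genes, with means between 4.34 and 5.93. The others without arsenic were coding in CNOT2 and CNOT7 and labelled as stop codon in CNOT11. With arsenic they were coding in CNOT8 and CNOT10 and labelled as 3′UTR in CNOT11, before a further coding window. The input of the strongest windows was nearly empty, with at most 2 input reads in 9 of 10 and in 9 of 9. The highest log2 values of these genes rest on few input reads.

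Most of these genes had fewer windows in the arsenic whole cell list than in the untreated one. The 10 genes had 331 windows with arsenic, 75.4% of the 439 untreated ones, while over all genes the list shrank to 64.6%. With only windows of deposited q under 0.05 the counts were 104 against 233 (44.6%, and 39.4% over all genes). With at least 20 IP and 10 input reads they were 54 against 56 (96.4%, and 59.4% over all genes). The windows left by this read minimum lay in 6 genes of each list, and those with arsenic were mostly in CNOT1. CNOT1 stood at 93.4% of its untreated number (155 against 166), CNOT6 at 90.6% (29 against 32) and CNOT11 at 85.7% (6 against 7). CNOT2 was at 82.4% (28 against 34), CNOT9 at 64.0% (16 against 25), CNOT10 at 61.4% (27 against 44) and CNOT4 at 57.1% (12 against 21). CNOT3 was at 50.5% (46 against 91), and CNOT8 had more windows with arsenic, 12 against 9. Among the 6780 genes with at least 5 untreated windows the median was 60%, with quartiles of 38.9% and 80%. CNOT7 went from 10 windows to 0, which happened to 6 of the 254 genes with 10 untreated windows and to 2.36% of the 6780 genes. Each list was called on its own from 2 pairs of libraries, so these counts have no replicate error and were not tested.

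In CNOT3 the classes shrank unequally, as they did over all windows of the lists. Introns away from splice sites had 44 CNOT3 windows untreated and 17 with arsenic, splice sites 25 and 17, and coding sequence 18 and 11. Over all genes, splice site windows numbered 64983 untreated and 48205 with arsenic, and coding windows 70435 and 41971. Intron windows near but not at splice sites numbered 19788 and 10412, and deep intron windows 4404 and 2501. The IP reads in the CNOT3 windows were 5401 untreated and 2536 with arsenic. In CNOT1 the splice site windows were 70 untreated and 80 with arsenic, and the coding windows 79 and 60, while the IP reads in its windows were 6818 and 8020. CNOT10 went the other way, with 20 splice site windows untreated and 10 with arsenic, and 19 and 14 coding windows. Of the 439 untreated windows 261 (59.5%) were also in the arsenic list, of which they made up 78.9%, beside 50.1% and 77.4% over all genes. The windows listed only in untreated cells were thinner than the shared ones, with a median of 21.5 IP reads against 36 and a median deposited q value, the highest over the replicates, of 0.0828 against 0.0272.

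No difference in enrichment between arsenic and untreated whole cells passed the test in these genes. Each gene was represented by its shared window with the most IP reads, and the 2 replicate values of each list were compared with limma over 7408 windows. Of the 9 genes with a shared window 0 had an adjusted p under 0.05, and 0.0% of all 7408 windows did, while 1 of the 9 and 284 of the 7408 had an unadjusted p under 0.05. With 2 values against 2, an exact permutation test cannot go below 0.333. The 9 differences had a median of −0.06, beside 0.10 over all windows, and 4 of 9 were above 0.

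CNOT3 had the largest of these differences. In its 3′ splice site window (chr19:54149460-54149559) the untreated replicates had log2 values of 4.36 and 7.38 and the arsenic replicates 2.32 and 4.67, so the ranges overlapped. The difference was −2.37 (SE 1.10, limma adjusted p = 0.990), and with only windows of deposited q under 0.05 CNOT3 was represented by another window with a difference of 0.25. CNOT9 lay in the other direction in its coding window (chr2:218592304-218592402), with 3.17 and 3.50 untreated and 3.26 and 5.30 with arsenic, a difference of 0.94 (SE 0.92, limma adjusted p = 0.990). In CNOT1 the window (chr16:58532232-58532313, coding) had 135 IP and 17 input reads untreated, and 198 IP and 35 input reads with arsenic. Its log2 values were 3.95 and 4.01 untreated and 2.73 and 3.77 with arsenic, and it was the only one of the 9 whose ranges did not overlap, beside 15.2% of all windows that were lower without overlap. The difference of −0.73 (SE 0.86, limma adjusted p = 0.990) became 0.03 in the mean over all 122 shared CNOT1 windows.

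In the other 6 genes the ranges of the 2 lists overlapped. CNOT8 had 3.47 and 4.29 untreated and 3.11 and 5.49 with arsenic at a 5′ splice site, and CNOT2 had 1.83 and 3.21 against 2.50 and 3.25 in the intron start shown above. CNOT6 had 4.01 and 4.80 against 3.71 and 4.87 in coding sequence, and CNOT10 had 3.62 and 3.75 against 2.26 and 4.86. CNOT4 had 3.17 and 3.45 against 2.46 and 4.05, and CNOT11, in its window labelled as stop codon, had 4.32 and 4.48 against 4.24 and 4.65. In 7 of the 9 genes the arsenic replicates lay more than 1 log2 unit apart, which was true of 2 genes in the untreated replicates, beside 46.9% and 42.1% of the 7408 windows.

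**Figure D3:**
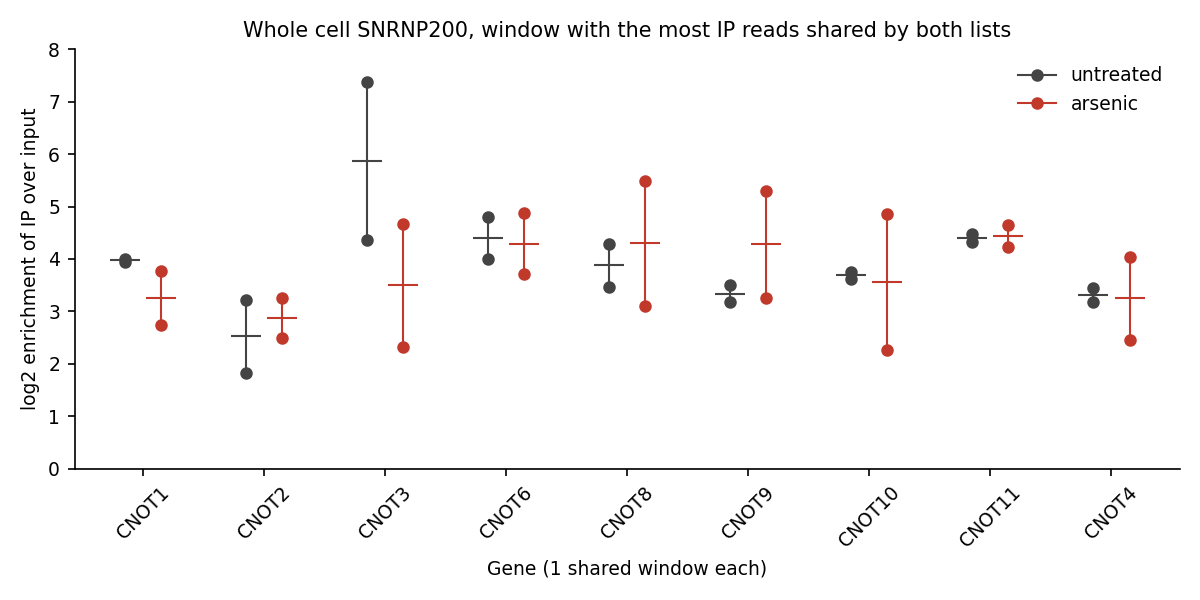
Points are the lower and higher replicate log2 enrichment (vertical axis) of the shared whole cell SNRNP200 window with the most IP reads in each gene, untreated in grey and with arsenic in red, and horizontal ticks are the means. The ranges overlap in every gene shown but CNOT1, where the arsenic values of 2.73 and 3.77 lie below 3.95 and 4.01.

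Over all 261 shared windows of the 10 genes the median difference was 0.05, beside −0.01 over all 91143 shared windows. In 43 windows (16.5%) the arsenic values lay above the untreated ones without overlap and in 37 (14.2%) below, beside 15.6% and 16.9% of all shared windows. None of the 261 passed the limma test at an adjusted p under 0.05, as none of all windows did (0.0%), and 7 (2.68%) had an unadjusted p under 0.05, beside 4.47% of all windows. By gene the median difference ran from −0.52 in 14 windows of CNOT9 to 0.38 in 4 windows of CNOT11, with 0.05 in CNOT1 and 0.09 in CNOT3.

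In the cytoplasmic SNRNP200, CAPRIN and G3BP1 lists the few windows lay in exons. Of the 22 entries in the cytoplasmic SNRNP200, CAPRIN and G3BP1 lists, 11 were in 3′UTRs, 10 in coding sequence and 1 in a 5′UTR, and 0 were in introns. Windows at splice sites were rare in these lists as a whole, with 0.0717% and 0.133% in the cytoplasm without and with arsenic, 0.821% with CAPRIN and 1.22% with G3BP1. Over all windows, 3′UTRs held 67.6%, 45.5%, 34.8% and 21.6% and coding sequence 20.3%, 25.1%, 43.5% and 49.0% in the same order, so exonic windows were the rule there for all genes. The 22 entries came from 6 genes, CNOT1, CNOT3, CNOT6, CNOT8, CNOT9 and CNOT11, while CNOT2, CNOT4, CNOT7 and CNOT10 had none. Each rested on 8 to 61 IP reads.

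In the untreated cytoplasm SNRNP200 had 3 windows in CNOT1, the strongest in the 3′UTR (chr16:58520774-58520865) with 26 IP and 1 input reads and log2 values of 3.60 and 4.77. The other two were coding. CNOT6 (chr5:180575983-180576081), CNOT8 (chr5:154875633-154875728) and CNOT11 (chr2:101270136-101270225) each had 1 window, all in the 3′UTR, with log2 values of 1.64 and 4.45, 1.91 and 2.72, and 1.82 and 3.34. With arsenic the CNOT1 3′UTR window was the directly adjoining one (chr16:58520683-58520773), with 18 IP and 10 input reads and log2 values of 4.04 and 5.998. CNOT9 had a 3′UTR window (chr2:218595437-218595532) with fewer IP than input reads, 11 against 15, and log2 values of 3.43 in both replicates. CNOT11 had a coding window of 84.1% GC (chr2:101253065-101253146) with log2 values of 3.04 and 4.54.

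The value of such a window depends on the baseline of its list. This baseline was estimated as a median over all listed windows of a list, with 1 read added to each count. Single windows can differ from it, since enrichment was set within classes of GC content. By this median a log2 value of 0 stood for about 8.17 input reads per IP read in the arsenic cytoplasmic list. It was 1.06 in the untreated cytoplasmic list and 1.57 in the arsenic whole cell list. A window with more input than IP reads could thus be listed as enriched in the arsenic cytoplasmic list.

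A single coding window of CNOT1 (chr16:58534313-58534395) was in all 4 SNRNP200 lists, as were 97 windows in 70 genes over the whole transcriptome. Its log2 values were 2.31 and 2.86 in untreated whole cells, 3.56 and 4.004 in arsenic-treated whole cells, 2.08 and 2.69 in the untreated cytoplasm, and 3.53 and 6.02 in the cytoplasm with arsenic. The arsenic values lay above the untreated ones without overlap in both fractions. In whole cells this was true of 15.6% of all 91143 shared windows. The reads were 88 IP and 30 input, 88 and 13, 19 and 3, and 22 and 13, in the same order. In the cytoplasm the difference of 2.39 (SE 1.23, limma adjusted p = 0.186 over 669 windows) was close to the median of 2.02 over all shared windows, of which 70.9% were higher without overlap and 0.0% passed the test. Without arsenic the cytoplasm differed from whole cells by −0.20 (SE 0.55, limma adjusted p = 0.878 over 390 windows), beside a median of 0.12 over all windows. CNOT1 shared a further coding window there (chr16:58556847-58556919), with 2.54 and 3.64 in the cytoplasm against 2.19 and 2.43 in whole cells. It was higher in the cytoplasm without overlap, as were 194 of all 651 shared windows. With arsenic the cytoplasm differed from whole cells by 0.99 in the window of all 4 lists (SE 1.00, limma adjusted p = 0.513 over 527 windows), beside a median of 1.31 over all windows. In both of these comparisons 0.0% of all windows passed the test. CNOT1 was the only gene of the 10 with a shared window in these 3 comparisons, and its p was not under 0.05 in any of them before adjustment.

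CAPRIN had 4 windows in CNOT1, all coding, with 8 to 15 IP reads. The strongest (chr16:58539768-58539863) had log2 values of 2.88 and 4.38. In CNOT3 it had 2 coding windows and 2 adjoining 3′UTR windows, and the second of these (chr19:54155499-54155589, 74.7% GC) had 61 IP and 6 input reads, log2 values of 3.20 and 3.50, and a deposited q of 2.99e-05. CNOT9 had the highest CAPRIN value of the 10 genes in a 3′UTR window (chr2:218594567-218594662), with 16 IP and 0 input reads and log2 values of 4.53 and 4.98. CNOT8 had 1 window in its 3′UTR (chr5:154875440-154875535), with 8 IP and 0 input reads. It lay 97 bases before the SNRNP200 window of the untreated cytoplasm. In CNOT11 CAPRIN and untreated cytoplasmic SNRNP200 shared the same 3′UTR window (chr2:101270136-101270225), with log2 values of 3.51 and 3.94 for CAPRIN on 14 IP and 2 input reads.

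The G3BP1 window was in the 5′UTR of CNOT1 (chr16:58599338-58599424), with 17 IP and 10 input reads and a lowest and highest log2 value of 2.07 and 2.67. It belongs to entries called in up to 3 replicates, although the labels give 2 for G3BP1. Whole cell SNRNP200 listed the same window with 1.52 and 2.81 untreated and 2.12 and 2.64 with arsenic. CAPRIN and G3BP1 shared no window of the 10 genes, so no difference between them could be tested.

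**Figure D4:**
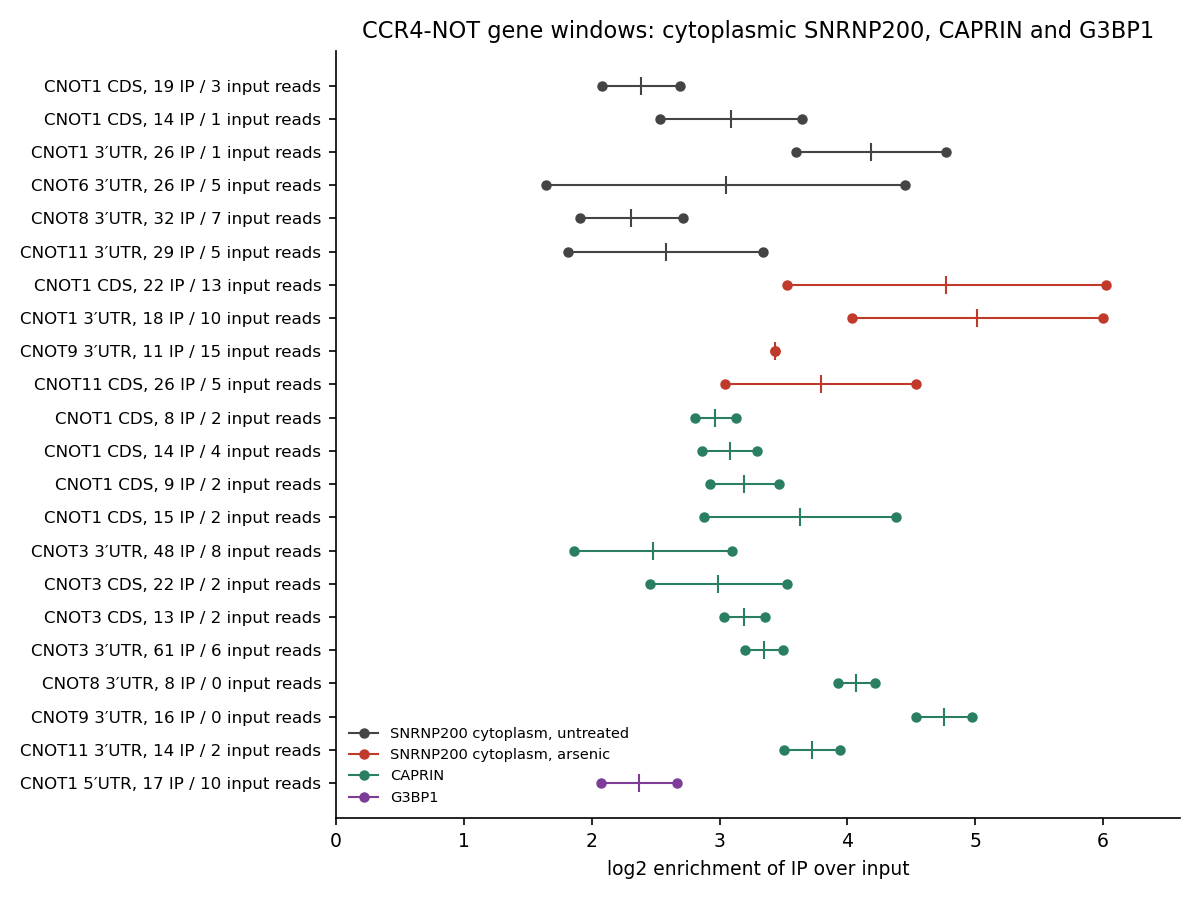
Each row is a window of a CCR4-NOT gene in the cytoplasmic SNRNP200, CAPRIN or G3BP1 lists, with the lower and higher replicate log2 enrichment as points on the horizontal axis, the mean as a tick and the summed IP and input reads in the row label. All 22 windows are in coding sequence or UTRs, and they rest on 8 to 61 IP reads.

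Other genes of mRNA decay were counted in the same way. The list of 43 held the deadenylases PAN2 and PARN, PAN3 as the partner of PAN2, decapping factors, and Argonaute and GW182 proteins. It also held poly(A)-binding proteins, other RNA-binding regulators and adaptors of CCR4-NOT. Of these 40 had a window in untreated whole cells and 39 in whole cells with arsenic. In the cytoplasm 16 had one without and 13 with arsenic, and 19 had one with CAPRIN and 10 with G3BP1. The shares over all 9792 genes were 92.4%, 83.8%, 18.6%, 25.2%, 44.6% and 12.6% in the same order. TNRC6A, a GW182 protein, had 88 and 60 whole cell windows and 1 elsewhere, and PABPC4, a poly(A)-binding protein, had 70 and 59 and then 2, 4, 7 and 1. CNOT6L, the paralog of CNOT6, had 8 and 3 windows in whole cells and 1 in the untreated cytoplasm. Between arsenic and untreated whole cells 0 of 38 of these genes passed the limma test in either direction, as did 0.0% of all 7408 windows. Of the 38, 1 had an unadjusted p under 0.05, beside 3.83% of the 7408 windows. The median difference was 0.22, beside 0.10 over all windows. In the cytoplasm 0 of 7 passed, 3 had an unadjusted p under 0.05, beside 29.3% of the 669 windows, and the median was 2.35, beside 2.02 over all windows. Between CAPRIN and G3BP1 3 of 6 were lower with CAPRIN at an adjusted p under 0.05 by limma, beside 19.1% of the 367 windows tested, and 0 were higher. These were DDX6 (difference −2.26), PUM2 (−2.12) and TNRC6B (−1.75). Over all 367 windows the median difference was −0.47, and 70 windows were called lower with CAPRIN. With that median removed, 36 of the 367 were called lower.

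By the number of windows in each of the 6 lists, the genes nearest to CNOT1 were ARID4B, NUP210 and HEATR1. Their Euclidean distances on the log2(windows + 1) scale over the 6 lists were 1.02, 1.30 and 1.37. ARID4B had 122 and 114 whole cell windows, NUP210 133 and 86, and HEATR1 167 and 128, against 166 and 155 in CNOT1. In the CAPRIN list HEATR1 had 10 windows and CNOT1 had 4.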

How the data were processed

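Per the submitters' processing notes, the authors used fastp 0.11.5 and STAR 2.7.6 with hg38; the program that called windows is not named there. As the lists lack column names, each column was identified by what it holds. The deposited counts are reads per window, input and IP, each summed over replicates by the authors. The deposited log2 enrichments compare IP with input within classes of GC content, given as the lowest, mean and highest replicate without library numbers, with each list normalised separately. The deposited q values (adjusted p-values) used are the highest over the replicates, and all are under 0.2. The GC content of each window was deposited as a fraction. Library depth was not used here, since only listed windows were at hand. All sample protocols name 1 antibody number for 3 proteins, and the protein in each label was used. The G3BP1 list holds 1254 entries called in up to 2 replicates and 1988 called in up to 3, and both were used for counts; its CNOT1 window comes from the second set.

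The 10 genes, the 43 related genes and the tests were chosen with earlier results of these data known. All 10 genes are named, with the window of the highest mean log2 value in each list as the strongest. Windows were matched between lists by position. Differences were tested with limma 3.58.1 (R 4.3.3), unpaired, two-sided and moderated, over all genes' shared windows, with Benjamini-Hochberg adjusted p under 0.05; the script was tested on simulated data. Related genes are named for the most windows over the lists, except 1 that is not reported here, and DDX6, PUM2 and TNRC6B after their values were seen. Gene positions, lengths and sequences are from RefSeq (GRCh38.p14). Counting, sequences and figures used Python 3.11.15.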

Additional observations from a re-analysis of the deposited data

How the results depend on the processing

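Counts of windows depended on the threshold. With a deposited q under 0.05 the windows numbered 233 and 104 in untreated and arsenic whole cells, 1 and 0 in the cytoplasm without and with arsenic (in 1 and 0 genes), 4 with CAPRIN and 0 with G3BP1 (0 genes). With at least 20 IP and 10 input reads they numbered 56 (in 6 genes) and 54 in whole cells, 0 (0 genes) and 1 (1 gene) in the cytoplasm, and 0 with CAPRIN and G3BP1 (0 genes each). G3BP1 had 0 windows (0 genes) in the set with up to 2 replicates. With q under 0.05 the splice site share was 46.8% untreated and 58.7% with arsenic in whole cells, and with the read minimum 16.1% and 24.1%. The coding share was 73.2% and 70.4% with the read minimum and 44.3% and 42.6% when weighted by IP reads. Most arsenic whole cell windows that met the read minimum were in CNOT1.

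The number of CCR4-NOT genes called by limma was 0 in each comparison under every alternative run, save 1 in the cytoplasm, arsenic against untreated, for CNOT1 without the lowest arsenic value (difference 3.63, limma adjusted p = 0.0222). That setting called 381 of the 669 windows higher (57.0%), and it assumes that the lone arsenic value varies like the other group. Leaving out 1 value in turn gave 0 to 1 genes there and 0 to 0 elsewhere.

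Signs of single differences were not stable. In whole cells the mean over all shared windows of a gene gave 0.027 for CNOT1, −0.21 for CNOT2, 0.054 for CNOT3, 0.10 for CNOT4, 0.17 for CNOT6, −0.065 for CNOT8, −0.30 for CNOT9 and 0.061 for CNOT10, and 0.29 for CNOT1 between cytoplasm and whole cells without arsenic. With q under 0.05 CNOT2 was at −2.15, CNOT3 at 0.25 and CNOT10 at 0.59, and with the read minimum CNOT3 was at 0.16. With the median removed CNOT11 was at −0.0504, and CNOT1 was at −0.31 between cytoplasm and whole cells with arsenic. Leaving out 1 value in turn gave −1.24 to −0.21 for CNOT1, −0.34 to 1.04 for CNOT2, −3.88 to −0.86 for CNOT3, −0.86 to 0.73 for CNOT4, −0.69 to 0.47 for CNOT6, −0.77 to 1.61 for CNOT8, −0.077 to 1.96 for CNOT9, −1.43 to 1.17 for CNOT10 and −0.16 to 0.25 for CNOT11 in whole cells. For CNOT1 it gave 1.14 to 3.63 in the cytoplasm, −0.50 to 0.11 between fractions without arsenic and −0.25 to 2.24 with it. The causes of these changes were not tested, beyond the choice of another window or fewer values.

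No paired analysis was possible because the deposited lowest and highest replicate values carry no library number. CAPRIN and G3BP1 shared no window of these genes, so none of the alternatives has a value there. The lists hold only windows under the authors' threshold, so an unlisted window is not a window without binding.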
